A study of Homo sapiens with 12 samples.

Results

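The MYB family is the set of 3 transcription factor genes MYB, MYBL1 and MYBL2, whose products bind DNA through Myb repeats. Its members were chosen by gene symbol, all 3 were among the 23368 symbols counted, and all 3 passed the filter on low counts in every comparison. The choice was made with earlier results of these data known, among them a higher MYBL1 level after GSK591, so the levels and fold changes of the members are given as a description. Where the text counts which members passed a threshold, nothing is read from it. RNA was measured by sequencing of poly(A) RNA in SUDHL6, an established human cell line of germinal centre B-cell type diffuse large B-cell lymphoma. The groups were GSK591 for 24 h, vehicle for 24 h, GSK591 for 96 h and vehicle for 96 h, with 3 samples in each. GSK591, an inhibitor of the arginine methyltransferase PRMT5, was given at 200 nM, and vehicle was 0.01% DMSO. All groups came from this single line with no genetic change stated in the labels, and the study's title places it among work on PRMT5 and BCL6 in the germinal centre. The labels do not say whether the samples of a group were separate cultures, so each p-value reflects how far these samples spread, and that spread may be technical.

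MYB (c-Myb) drives the growth of blood progenitors and is held low in most mature blood cells. MYBL1 (A-Myb) is known from meiosis in the mouse testis and, among B cells, from the proliferating cells of the germinal centre. MYBL2 (B-Myb) is made in nearly all dividing cells, is controlled by E2F factors at the start of S phase, and joins the MuvB complex to switch on genes for mitosis, whereas MuvB with RBL1 or RBL2 and E2F4 (the DREAM complex) represses the same genes in resting cells. GSK591-treated cells carried more MYBL1 and less MYBL2 RNA than vehicle cells at both times, and less MYB RNA at 96 h.

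Of the 12 libraries, 11 held between 48.5 and 64.4 M counts (M, mega) and vehicle replicate 1 at 96 h held 548 M. At 96 h, the library numbered 2 stood highest of its group for MYB, MYBL1 and MYBL2 in GSK591 and in vehicle cells, so the main values are also given without both of these libraries. A list of 5 B-cell markers, MS4A1 and CD79A among them, together reached between 6390 and 7350 CPM (counts per mega, scaled for library size) in GSK591 cells and between 6280 and 6720 CPM in vehicle cells at 96 h. Of 18 marker genes of T, NK, myeloid, erythroid, stromal, endothelial and epithelial cells, 8 had no count in any GSK591 library and 5 had none in any vehicle library at 96 h. The vehicle libraries include the one of 548 M counts, where rare reads are more readily seen, so these numbers of genes are not compared. The summed level of the 18 at 96 h lay between 1.68 and 2.91 CPM in GSK591 cells and between 0.638 and 1.35 CPM in vehicle cells. At 24 h their sum lay between 0.71 and 0.733 CPM in GSK591 cells and between 0.621 and 0.761 CPM in vehicle cells. CD14, a monocyte marker, was called at 96 h, when CD14 and COL1A1 were the 2 of these 18 genes that passed the filter and were tested (log2 fold change 1.64 ± 0.35 SE, adjusted p = 0.00751, edgeR's quasi-likelihood test with Benjamini-Hochberg adjustment). The CD14 level was low, at 0.864 ± 0.301 CPM in GSK591 cells and 0.272 ± 0.132 CPM in vehicle cells of 96 h (SD, n = 3 each).

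The promoters of MYB and MYBL2 are shown because both genes are reported E2F targets and both had lower RNA after 96 h of GSK591. The sequences are from RefSeq on GRCh38.p14, 5′ to 3′, plus strand, from 250 bases before to 50 bases after the transcription start, at chr6:135181058-135181357 for MYB and chr20:43666864-43667163 for MYBL2. Capitals mark TTGGCGG, an E2F-type motif that was chosen after the promoters had been read.
MYB: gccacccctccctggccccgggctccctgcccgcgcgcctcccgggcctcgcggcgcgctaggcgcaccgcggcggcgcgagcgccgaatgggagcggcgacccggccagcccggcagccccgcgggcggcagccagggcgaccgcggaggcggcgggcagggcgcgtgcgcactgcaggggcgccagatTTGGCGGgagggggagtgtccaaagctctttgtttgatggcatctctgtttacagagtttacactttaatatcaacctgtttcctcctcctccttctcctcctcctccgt
MYBL2: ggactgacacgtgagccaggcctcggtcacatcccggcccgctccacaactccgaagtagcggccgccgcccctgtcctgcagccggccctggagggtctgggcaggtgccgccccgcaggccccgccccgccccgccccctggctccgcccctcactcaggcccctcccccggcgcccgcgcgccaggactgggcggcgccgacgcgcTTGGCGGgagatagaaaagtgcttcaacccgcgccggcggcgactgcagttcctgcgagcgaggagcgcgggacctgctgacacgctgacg
The motif began 60 bases before the start in MYB and 41 bases before it in MYBL2. Searched on both strands, TTGGCGG stood in 3.51% of 27305 promoters of the same length. Among the lists described below, it stood in 4 of 20 G1/S promoters (20.0%) and 3 of 19 mitotic promoters (15.8%). It also stood in 2 of 10 MuvB and DREAM promoters (20.0%), 1 of 7 of MYB cofactors (14.3%) and 1 of 5 of other Myb or SANT proteins (20.0%). For germinal centre genes it was 1 of 18 (5.56%), for reported MYB targets 0 of 10, and for MYB and MYBL2 modifiers 0 of 7. The E2F motifs TTCCCGC and TTGGCGC, and the cell cycle homology motifs TTTGAA and TTCGAA, had no match in these windows of MYB and MYBL2. The Myb core AACNG matched in both, as it did in 77.1% of all promoters. A match is a description of the letters and no evidence of binding.

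MYBL1, the germinal centre member, had higher RNA in GSK591 cells than in vehicle cells at both times. Its level at 24 h was 116, 113 and 115 CPM in GSK591 replicates 1, 2 and 3, against 96.1, 90.7 and 98.0 CPM in vehicle replicates 1, 2 and 3. At 96 h it was 206, 235 and 197 CPM in GSK591 cells, against 91.8, 95.3 and 91.7 CPM in vehicle cells. Every GSK591 library stood above every vehicle library at both times, and the vehicle libraries of the 2 times overlapped. The share of all genes whose libraries separate in this way is not given. Nothing is therefore read from such a separation, here or for the other members. The group means were 115 ± 1.27 CPM in GSK591 cells and 94.9 ± 3.76 CPM in vehicle cells at 24 h (SD, n = 3 each), and 213 ± 19.9 CPM in GSK591 cells and 93.0 ± 2.06 CPM in vehicle cells at 96 h (SD, n = 3 each). The log2 fold change of GSK591 over vehicle was 0.27 ± 0.03 (SE) at 24 h, a 1.21-fold level, and 1.21 ± 0.07 (SE) at 96 h, a 2.31-fold level. In rank, MYBL1 had the 24th most positive value of the 8840 genes whose log2 CPM averaged 3 or more at 24 h, and the 17th of 9046 such genes at 96 h. In these bulk samples, more RNA per cell and more cells that make it cannot be told apart, here and for every value that follows.

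MYBL2, the cell cycle member, was the most abundant of the family per length of transcript and was lower in GSK591 cells. At 24 h its level was 362, 370 and 364 CPM in GSK591 replicates 1, 2 and 3, against 378, 398 and 390 CPM in vehicle replicates 1, 2 and 3. At 96 h it was 173, 210 and 186 CPM in GSK591 cells, against 241, 297 and 247 CPM in vehicle cells. The groups did not overlap at either time, although the gap at 24 h was narrow. The log2 fold change was -0.09 ± 0.02 (SE) at 24 h, a 0.941-fold level, and -0.45 ± 0.10 (SE) at 96 h, a 0.733-fold level. Vehicle cells of 96 h also lay below vehicle cells of 24 h in every library, with group means of 262 ± 30.8 CPM at 96 h and 389 ± 10.2 CPM at 24 h (SD, n = 3 each). The counts of the 2 times were deposited as separate tables, so time and any other difference between the tables cannot be told apart for a level set across them.

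MYB, the progenitor member, was read at a low level and differed between the treatments at 96 h. Its level at 24 h was 8.9, 9.9 and 9.57 CPM in GSK591 replicates 1, 2 and 3, against 8.96, 10.5 and 9.5 CPM in vehicle replicates 1, 2 and 3. At 96 h it was 4.57, 5.68 and 4.44 CPM in GSK591 cells, against 7.84, 9.94 and 7.67 CPM in vehicle cells. The groups overlapped at 24 h and stood apart at 96 h. These levels rest on 464, 555 and 483 reads in GSK591 cells and 471, 514 and 520 reads in vehicle cells at 24 h, and on 237, 385 and 245 reads in GSK591 cells at 96 h. The vehicle libraries of 96 h held 514 and 384 MYB reads in replicates 2 and 3, and 4418 in the deeply sequenced replicate 1. The log2 fold change was -0.03 ± 0.07 (SE) at 24 h and -0.77 ± 0.14 (SE) at 96 h, a 0.587-fold level. The 24 h value had no stable sign, since it was 0.04 without vehicle replicate 2 and 0.01 without GSK591 replicate 1. MYB-AS1, the antisense partner of MYB, was not among the symbols counted. No label or header states whether counting used strand, so reads of MYB and of MYB-AS1 cannot be told apart.

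**Figure D1:**
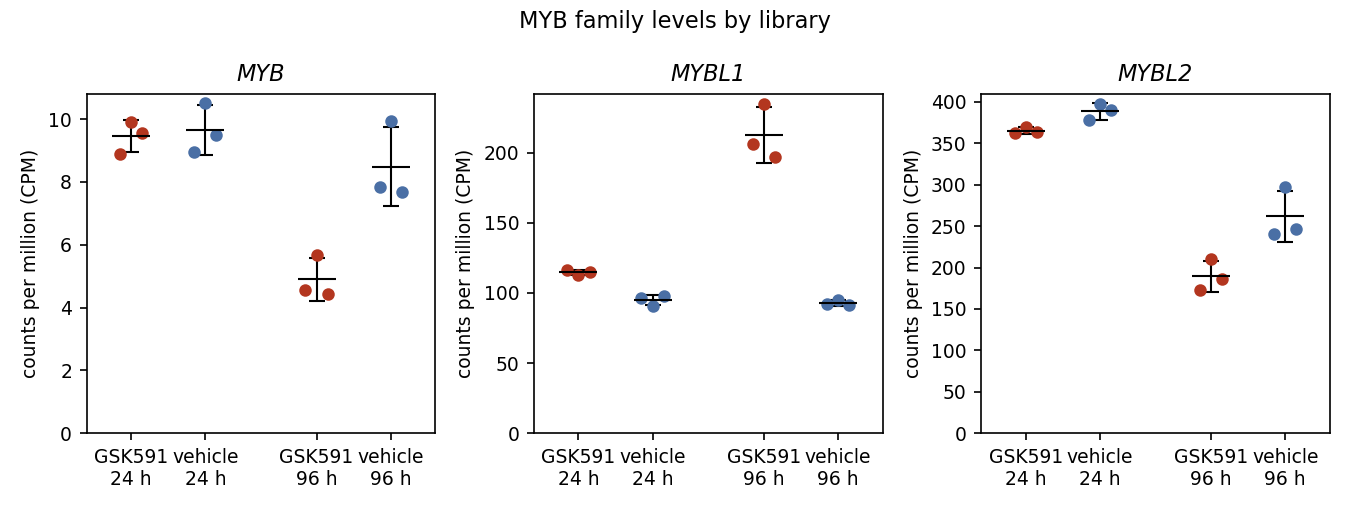
Level of MYB, MYBL1 and MYBL2 in CPM (vertical axes, linear from 0, a separate scale for each gene) in every library, by group. Points are libraries, the long bar is the group mean and the error bar is 1 SD over 3 libraries. At 96 h the GSK591 libraries stand above the vehicle libraries for MYBL1 (197 to 235 against 91.7 to 95.3 CPM) and below them for MYB and MYBL2.

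Fits over all genes with edgeR's quasi-likelihood test place these values among all genes. At 24 h, 1940 of 13173 genes tested (14.7%) were called at an adjusted p under 0.05, 7.44% of genes as higher and 7.29% as lower, and of the family MYBL1 was called higher and MYBL2 lower. At 96 h, 5437 of 13514 genes (40.2%) were called, 20.7% as higher and 19.6% as lower, and of the family MYBL1 was called higher and MYB and MYBL2 lower. The members were chosen with these contrasts known, so nothing is read from their counts. With all 12 libraries in 1 fit, which pools the spread of both times, 29 genes were called at 24 h, and no member and no gene of the lists described below was among them, so every 24 h call in the text rests on the fit of the 24 h libraries alone. At 96 h, 98.4% of the genes tested had a lower log2 fold change than MYBL1, 2.77% a lower one than MYB and 9.91% a lower one than MYBL2. The authors' deposited tables gave log2 fold changes at 24 h of -0.05 for MYB, 0.25 for MYBL1 and -0.11 for MYBL2. At 96 h the authors' deposited tables gave -0.76 for MYB, 1.21 for MYBL1 and -0.44 for MYBL2.

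**Figure D2:**
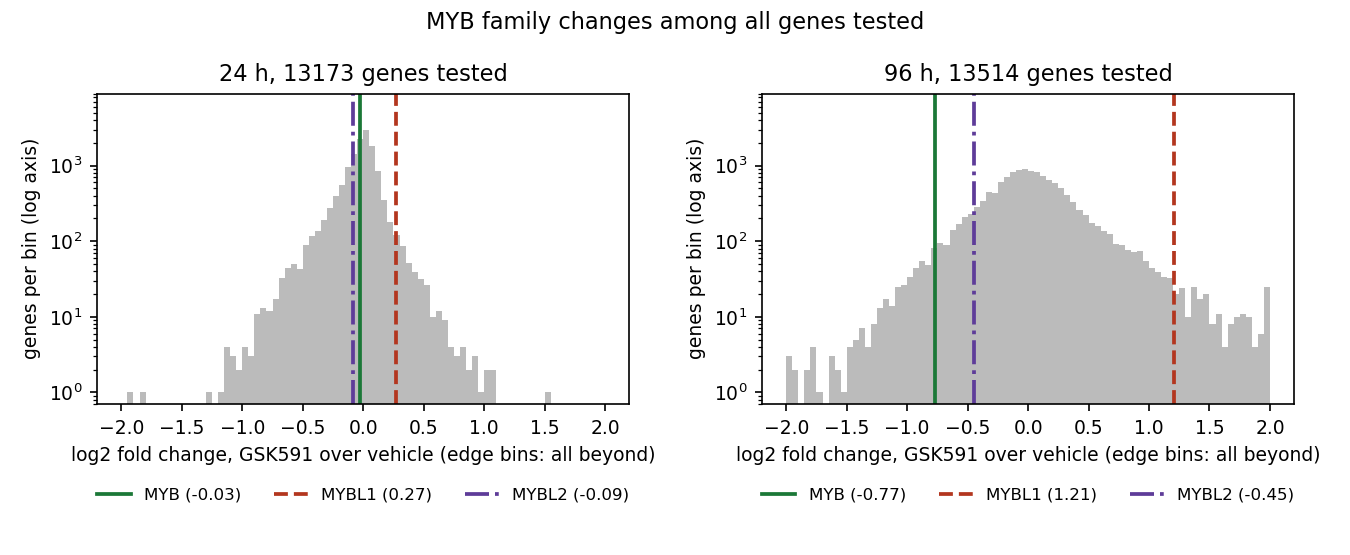
Distribution of the log2 fold change of GSK591 over vehicle (horizontal axis) over all genes tested at each time, as genes per bin on a log axis, with the values of the 3 members as vertical lines. Genes beyond the axis range are counted in the bin at its edge. MYBL1 lies in the upper tail at both times (0.27 at 24 h and 1.21 at 96 h), whereas MYB (-0.77) and MYBL2 (-0.45) lie on the lower side at 96 h.

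The effects of GSK591 at the 2 times were set against each other for each member. MYBL1 had a log2 fold change 0.92 ± 0.08 (SE) greater at 96 h than at 24 h in the fit of all 12 libraries. MYB had one 0.75 lower (-0.75 ± 0.16 SE), and MYBL2 one 0.38 lower (-0.38 ± 0.11 SE). All 3 values point away from 0 in the direction of the 96 h effect. Of 13665 genes tested for this difference, 24.1% were called. The members were chosen with these contrasts known, so no p-value is given for them and nothing is read from their calls. Without the vehicle and GSK591 libraries numbered 2, the 96 h log2 fold changes were -0.79 for MYB, 1.14 for MYBL1 and -0.44 for MYBL2.

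The order of the groups differed from member to member. For MYBL1, GSK591 cells of 96 h stood highest (197 to 235 CPM), then GSK591 cells of 24 h (113 to 116 CPM), and the vehicle libraries of 96 h (91.7 to 95.3 CPM) lay within the range of those of 24 h (90.7 to 98.0 CPM). For MYBL2, no neighbouring groups overlapped, with GSK591 cells of 96 h lowest (173 to 210 CPM), then vehicle cells of 96 h (241 to 297 CPM), GSK591 cells of 24 h (362 to 370 CPM) and vehicle cells of 24 h (378 to 398 CPM). For MYB, GSK591 cells of 96 h were lowest (4.44 to 5.68 CPM), and the other 3 groups overlapped between 7.67 and 10.5 CPM.

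Levels of different genes were compared per length of transcript, as CPM per kilobase of exon (4649 bases for MYB, 5237 for MYBL1 and 2777 for MYBL2 in the basic transcript set of GENCODE on GRCh38, another build than the hg19 of the counts). On this scale MYBL2 stood above MYBL1, and MYBL1 above MYB, in every library. At 96 h, MYBL2 had a level of 68.3 in GSK591 cells against 94.3 in vehicle cells, MYBL1 had 40.6 in GSK591 cells against 17.8 in vehicle cells, and MYB had 1.05 in GSK591 cells against 1.83 in vehicle cells. At 24 h the levels were 132 in GSK591 and 140 in vehicle cells for MYBL2, 21.9 in GSK591 and 18.1 in vehicle cells for MYBL1, and 2.03 in GSK591 and 2.08 in vehicle cells for MYB. The make-up of the family pool therefore shifted towards MYBL1. MYBL1 made up 35.7% to 38.3% of the length-scaled family signal in GSK591 libraries of 96 h, against 14.3% to 16.5% in vehicle libraries. At 24 h it made up 13.8% to 14.3% in GSK591 libraries, against 10.6% to 11.7% in vehicle libraries. Counting the exons of all annotated transcripts lowered the MYBL1 share at 96 h to between 28.7% and 31.1% in GSK591 libraries and between 10.8% and 12.6% in vehicle libraries.

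A ratio of reads within a library does not depend on how libraries are scaled. At 96 h there were 119, 112 and 106 MYBL1 reads for every 100 MYBL2 reads in GSK591 replicates 1, 2 and 3, against 38.0, 32.1 and 37.2 in vehicle replicates 1, 2 and 3. At 24 h there were 32.0, 30.6 and 31.4 in GSK591 cells, against 25.4, 22.8 and 25.1 in vehicle cells. The groups did not overlap at either time, and the ratio was 3.15-fold higher in GSK591 cells at 96 h and 1.28-fold higher at 24 h. MYBL1 reads were also more frequent relative to MYB reads, with 45.0, 41.4 and 44.4 MYBL1 reads per MYB read in GSK591 replicates 1, 2 and 3 at 96 h. That ratio was 3.95-fold higher than in vehicle cells at 96 h and 1.23-fold higher at 24 h. MYB and MYBL2, both lower at 96 h, kept closer to each other, with a log2 ratio of MYB to MYBL2 that differed by -0.33 between GSK591 and vehicle cells at 96 h and by 0.06 at 24 h.

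**Figure D3:**
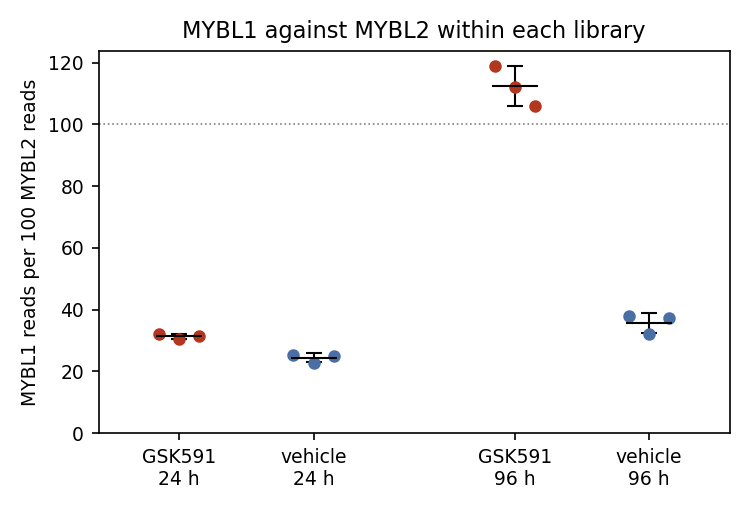
MYBL1 reads per 100 MYBL2 reads in each library (vertical axis), by group, with GSK591 left of vehicle at each time. Points are libraries, the long bar is the group mean, the error bar is 1 SD over 3 libraries, and the dotted line marks equal reads of both genes. The GSK591 libraries of 96 h lie between 106 and 119, and every other library lies at 38.0 or below.

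To see which genes followed each member most closely, log2 CPM was centred on the mean of the 6 libraries of its time and correlated over the 12 libraries with 8972 genes averaging a log2 CPM of 3 or more. These correlations are a description, since the libraries share the treatment. The closest to MYBL1 were ANKZF1, a factor that frees stalled nascent chains from ribosomes (Pearson r = 0.993), KRIT1, a RAP1-binding protein of endothelial junctions (r = 0.992), and UHRF2, a ubiquitin ligase that binds modified DNA (r = 0.992). Their log2 fold changes at 96 h were 0.95 ± 0.07 for ANKZF1, 0.70 ± 0.07 for KRIT1 and 0.65 ± 0.05 for UHRF2 (SE). The closest to MYBL2 were the mitotic kinase CDK1 (r = 0.997), cyclin A2, CCNA2 (r = 0.995), and the chromatin protein HMGB2 (r = 0.995). The closest to MYB were EXOSC2, a subunit of the RNA exosome (r = 0.991), TRIP13, an ATPase of the spindle checkpoint (r = 0.987), and ALKBH8, a transfer RNA modifying enzyme (r = 0.987). Within the family, MYB and MYBL2 had r = 0.97, whereas MYBL1 had r = -0.851 with MYB and r = -0.832 with MYBL2.

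The genes around the family were grouped by role, beginning with the partners of MYBL2. Of 11 genes of the MuvB core and the DREAM complex, 2 rose and 3 fell at 96 h, with a median log2 fold change of 0.05 against 0 for all genes tested. Over all genes 20.7% rose and 19.6% fell, so the shares of this list lie near those of any genes. LIN37, a MuvB subunit, rose by 0.34 ± 0.07 (adjusted p = 0.00744), and E2F5 rose by 0.15 ± 0.05 (adjusted p = 0.031). RBL1, the p107 pocket protein, fell by 0.35 ± 0.06 (adjusted p = 0.00316). LIN9, the MuvB subunit, and TFDP1, the E2F partner (-0.19 ± 0.05, adjusted p = 0.0196), also fell, the TFDP1 call being lost without vehicle replicate 1 or 2 or GSK591 replicate 1, and E2F4 had 0.05 ± 0.05. At 24 h RBL1 was the 1 gene of the 11 called (-0.13 ± 0.03, adjusted p = 0.0137), where 7.29% of all genes fell. This RBL1 call was lost without vehicle replicate 2. The counts at 96 h were as low as 1 higher without any single library but GSK591 replicate 2, and 1 lower without vehicle replicate 1 or 2.

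Mitotic genes, which MYBL2 with MuvB and then FOXM1 activate, fell in part. Of 24 such genes, 13 fell and 0 rose at 96 h, with a median log2 fold change of -0.25, set beside 19.6% of all genes called lower. KIF20A, a kinesin of cytokinesis, fell by 0.76 ± 0.13 (adjusted p = 0.00288), CCNA2 by 0.69 ± 0.13 (adjusted p = 0.00454) and CDK1 by 0.60 ± 0.12 (adjusted p = 0.00546). FOXM1 itself fell by 0.36 ± 0.10 (adjusted p = 0.0238). Mitotic regulators that did not pass the test were cyclin B1, CCNB1, at -0.06 ± 0.06, the kinase TTK at 0.07 ± 0.08 and the spindle protein ASPM at 0.12 ± 0.13, examples chosen after their values were seen. At 24 h, 6 of the 24 fell and 0 rose (median -0.03, 7.29% of all genes called lower), among them HMMR (-0.22 ± 0.04, adjusted p = 0.00202), TOP2A (-0.10 ± 0.02, adjusted p = 0.00392) and CDK1 (-0.12 ± 0.03, adjusted p = 0.00538). The 96 h count was 6 without vehicle replicate 2 or GSK591 replicate 3 and 7 without GSK591 replicate 1, and the 24 h count was 3 without GSK591 replicate 1. Over all genes, these 96 h fits called 3507, 3715 and 3438 genes, against 5437 in the main fit. The 24 h fit called 980, against 1940.

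Most of the G1/S genes, whose E2F-controlled promoters are of the kind reported for MYBL2 itself, fell at 96 h. Of 24 such genes, 23 fell and 0 rose, with a median log2 fold change of -0.80, where 19.6% of all genes fell. RRM2, the small subunit of ribonucleotide reductase, fell by 1.77 ± 0.21 (adjusted p = 0.000933), POLA1, the DNA polymerase alpha catalytic chain, by 0.82 ± 0.09 (adjusted p = 0.000616), and GINS2, part of the replicative helicase, by 0.66 ± 0.07 (adjusted p = 0.00062). E2F1 was the gene not called (-0.11 ± 0.06, adjusted p = 0.165). At 24 h, 13 of the 24 fell and 0 rose (median -0.10, 7.29% of all genes called lower), among them RRM2 (-0.30 ± 0.03, adjusted p = 8.62e-06) and POLA1 (-0.20 ± 0.03, adjusted p = 0.000243). The value of MYBL2 at 96 h (-0.45) lay between the medians of this list and of the mitotic list, and neither these differences nor that between the lists was tested. The 24 h count was 8 without vehicle replicate 2 or without GSK591 replicate 1. Of the 20 G1/S promoters in the table, 14 (70.0%) held TTCCCGC or TTGGCGC, as did 9.33% of all promoters, and of the 19 mitotic promoters 13 (68.4%) held TTTGAA or TTCGAA, as did 16.6% of all promoters. Both lists were drawn up by how their promoters are reported to be controlled, so nothing is read from these shares.

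The mean log2 difference from the vehicle mean over the G1/S list at 96 h was -0.98, -0.56 and -0.85 in GSK591 replicates 1, 2 and 3, against -0.08, 0.17 and -0.08 in vehicle replicates 1, 2 and 3. Over the mitotic list it was -0.37, -0.17 and -0.31 in GSK591 cells, against -0.09, 0.18 and -0.09 in vehicle cells. The library numbered 2 stood highest in each group for both lists, as it did for MYB and MYBL2, and its part in these results was not tested beyond the values given without it.

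Among 12 proteins that modify or hold back MYB and MYBL2, 10 passed the filter on low counts and were tested. At 96 h, 1 rose and 4 fell (median -0.20), where 20.7% of all genes rose and 19.6% fell. TRAF7, a ligase that stimulates sumoylation of MYB, fell by 0.44 ± 0.05 (adjusted p = 0.00066), and CCNF, cyclin F, which restrains MYBL2, fell by 0.47 ± 0.08 (adjusted p = 0.00323). CDK2, which with cyclin A phosphorylates MYBL2, fell by 0.27 ± 0.05 (adjusted p = 0.00506), and the ubiquitin ligase subunit SKP2 by 0.55 ± 0.13 (adjusted p = 0.0125, a call lost without vehicle replicate 2 or GSK591 replicate 3). The kinase NLK, which marks MYB for breakdown, rose by 0.22 ± 0.07 (adjusted p = 0.035), whereas FBXW7, a ubiquitin ligase subunit for MYB, had 0.03 ± 0.05 and MYBBP1A, a MYB-binding protein, had -0.13 ± 0.09. At 24 h CCNF was the 1 gene called (-0.13 ± 0.03, adjusted p = 0.0108), near the 7.29% of all genes called lower, and its call was lost without vehicle replicate 2 or GSK591 replicate 1. Without both libraries numbered 2, 2 rose and 7 fell at 96 h. That fit called 8201 genes in all, against 5437 in the main fit, so the shares of 20.7% and 19.6% do not apply to it.

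Most MYB cofactors were higher at 96 h, when MYB was lower. Of 7 genes, 4 rose and 1 fell (median 0.30), where 20.7% of all genes rose and 19.6% fell. The MYB-binding acetyltransferases EP300 (0.32 ± 0.07, adjusted p = 0.00681) and CREBBP (0.30 ± 0.06, adjusted p = 0.00683) rose, as did the methyltransferase KMT2A, listed under its older symbol MLL (0.47 ± 0.09, adjusted p = 0.00457), and its partner menin, MEN1 (0.30 ± 0.05, adjusted p = 0.00305). TAF12, a TFIID subunit, fell by 0.16 ± 0.05 (adjusted p = 0.0416), a call lost when any single library of 96 h but GSK591 replicate 2 was left out (adjusted p up to 0.109). At 24 h the same 4 genes rose, by 0.08 to 0.09, where 7.44% of all genes rose and 7.29% fell. TAF12 fell at 24 h by 0.15 ± 0.04 (adjusted p = 0.0101, a call lost without vehicle replicate 2 or GSK591 replicate 3). The 4 calls at 24 h depended on scaling: 0 were called higher with library size alone, 0 when vehicle replicate 2 or either of GSK591 replicates 1 and 3 was left out, and 1 without vehicle replicate 1.

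Of 12 genes reported as MYB targets in blood cells, 7 were tested, and CCNA1, CD34, CD4, KIT and RAG2 did not pass the filter on low counts. At 96 h, 1 rose and 3 fell (median -0.24), where 20.7% of all genes rose and 19.6% fell. MAT2A, which makes S-adenosylmethionine, fell by 0.47 ± 0.07 (adjusted p = 0.00191), MYC by 0.43 ± 0.09, and HSPA5, an endoplasmic reticulum chaperone, by 0.24 ± 0.06 (adjusted p = 0.0125). The chemokine receptor CXCR4 rose by 0.45 ± 0.12 (adjusted p = 0.0164), a call that each of 3 omissions ended (vehicle replicate 2, GSK591 replicate 1, GSK591 replicate 3), and the survival gene BCL2 had 0.01 ± 0.05. At 24 h, when the MYB level overlapped between the groups, HSPA5 (-0.15 ± 0.02, adjusted p = 9.34e-05) and MAT2A (-0.14 ± 0.03, adjusted p = 0.00105) fell, 2 of 7 genes where 7.29% of all genes fell.

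Germinal centre genes, the setting in which MYBL1 is known among B cells, rose in part. Of 22 such genes other than MYBL1, 9 rose and 3 fell at 96 h (median 0.19), where 20.7% of all genes rose and 19.6% fell. BACH2, a repressor of plasma cell fate, rose by 0.60 ± 0.06 (adjusted p = 0.00055), and BCL6, the master repressor of the germinal centre, by 0.19 ± 0.05 (adjusted p = 0.0174). MYBL1, at 1.21, had a greater log2 fold change than any of the 22. It was chosen with its higher level known, so nothing is read from this order. GCSAM, a regulator of motility listed under its older symbol GCET2, fell by 0.41 ± 0.08 (adjusted p = 0.00566), and CD22 and SPIB fell as well. At 24 h, 9 rose and 3 fell (median 0.06), where 7.44% of all genes rose and 7.29% fell. Among those that rose were CD79B, a B-cell receptor subunit (0.14 ± 0.02, adjusted p = 0.000558), RGS13, a brake on chemokine signals (0.16 ± 0.03, adjusted p = 0.00126), and BACH2 (0.15 ± 0.03, adjusted p = 0.0052). The count of higher genes at 96 h was 5 without vehicle replicate 1, 4 without vehicle replicate 2 or 3, and 3 without GSK591 replicate 1 or 3. These fits called 3438 to 3942 genes in all, against 5437 in the main fit, so the share of 20.7% does not apply to them. At 24 h the count of higher genes was 5 with library size alone or without GSK591 replicate 1, and 4 without vehicle replicate 2 or GSK591 replicate 3.

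Other proteins that carry Myb or SANT repeats, but lie outside the family, served for comparison. Of 9, 4 rose and 0 fell at 96 h (median 0.07), where 20.7% of all genes rose. MYSM1, a histone H2A deubiquitinase, rose by 0.56 ± 0.09 (adjusted p = 0.00215), TERF2, a telomere repeat binder, by 0.32 ± 0.06 (adjusted p = 0.00497), SNAPC4, a factor for small nuclear RNA genes, by 0.28 ± 0.08 (adjusted p = 0.0201), and the chaperone partner DNAJC2 by 0.21 ± 0.06 (adjusted p = 0.0192). The SNAPC4 call was lost without vehicle replicate 2 or GSK591 replicate 1, and the DNAJC2 call without any single library but those numbered 2. All 4 values lay below that of MYBL1, which was chosen with its higher level known, so nothing is read from this order. At 24 h DNAJC2, MYSM1 and SNAPC4 rose, by 0.14 to 0.15, where 7.44% of all genes rose, and CDC5L (0.07 ± 0.03) and DMTF1 (-0.01 ± 0.02) were not called. The 96 h count was 2 without GSK591 replicate 1.

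**Figure D4:**
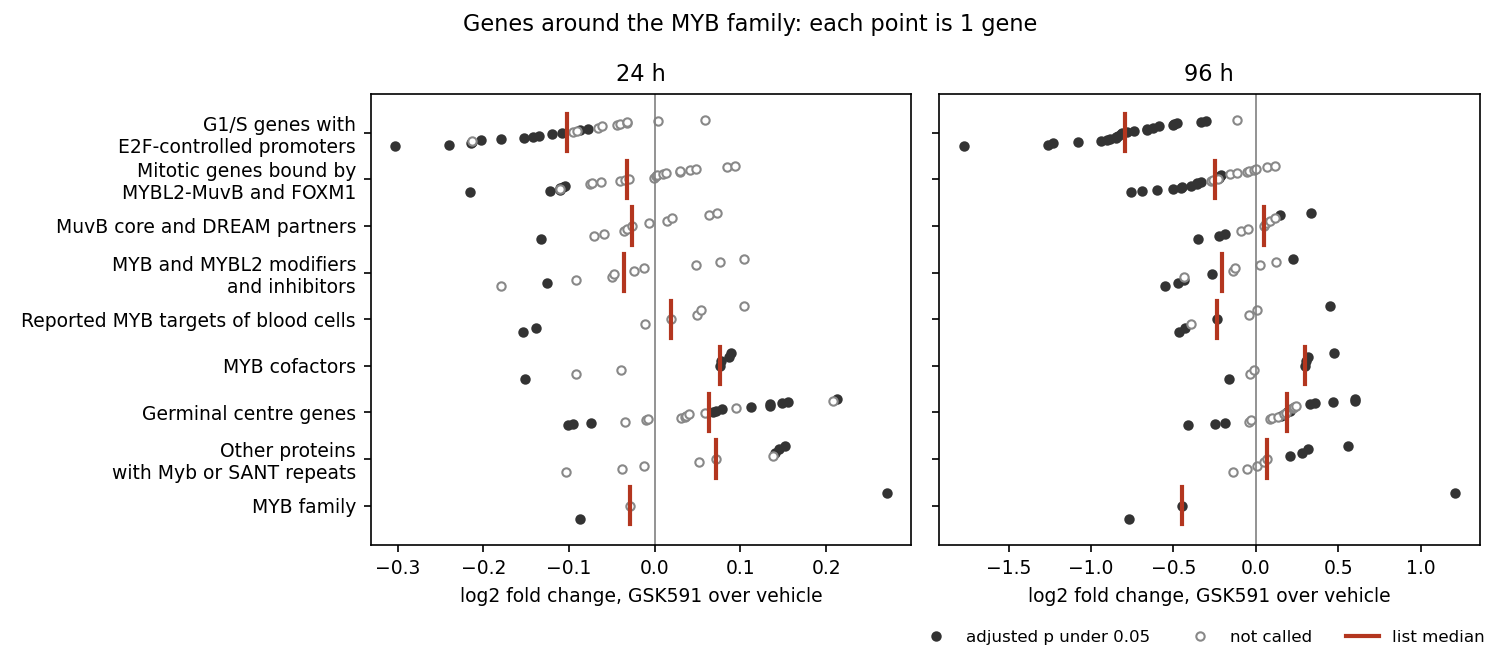
Log2 fold change of GSK591 over vehicle (horizontal axes, a separate scale at each time) for each tested gene of the MYB family and of the 8 lists named on the vertical axis, without the markers of B cells and of other cell types. Each point is a gene, filled where its adjusted p is under 0.05, and the vertical bar is the list median. At 96 h the medians of the G1/S (-0.80) and mitotic (-0.25) lists lie below 0. Those of the MYB cofactors (0.30) and germinal centre genes (0.19) lie above it. MYBL1 (1.21), chosen with its higher level known, lies to the right of every other gene drawn.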

How the data were processed

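Poly(A) RNA of SUDHL6 cells was sequenced in 12 samples. The submitters' processing notes name STAR, HTSeq, edgeR and the build hg19. Versions, annotation and strand setting are not stated there. The authors deposited raw counts per gene symbol, 1 table per time, and tables of their own comparisons with log2 fold changes, average log2 CPM, p-values and false discovery rates, per the file headers. How these comparisons were tested is not stated.

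From the deposited counts, the 6 samples of each time were fitted alone with edgeR 4.0.16 in R 4.3.3 (filterByExpr, TMM factors, quasi-likelihood test, two-sided, Benjamini-Hochberg adjustment over all genes tested, threshold 0.05, "called"), and the difference between times in a fit of all 12 samples. "Rose", "fell" and "changed" for genes outside the family mean called. The SE of a log2 fold change was taken as its size over the root of F. CPM of levels use TMM factors over all 12 libraries. No replicate pair agreed within sampling noise, so all 12 samples were kept. The fits were also run on simulated counts in which every library was drawn independently at the fitted spread. Such a simulation cannot show whether the spread of these samples is technical, nor address a deviation that libraries share.

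The family members and gene lists were chosen with earlier results of these data known. Besides the members, the text names the 3 genes of each list with the smallest p at each time and the 3 genes most correlated with each member; some genes that this rule selects are not reported here. Other examples, and every gene of a count of 5 or fewer, were named after their values were seen. KMT2A and GCSAM were matched as MLL and GCET2. MYBL1 reads per MYBL2 read were computed with a pseudocount of 0.5 added to each count on the log2 scale. Alternatives were other scaling factors, other filters on low counts, DESeq2 1.42.0, a replicate block, all 12 samples in 1 fit, the deepest library thinned to 53.6 M counts (M, mega), both 96 h libraries numbered 2 left out, and each library left out in turn. A count of list genes under an alternative belongs to that fit, whose share over all genes can differ from that of the main fit.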

Additional observations from a re-analysis of the deposited data

Results flagged for a closer look

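The GSK591 effect on each member of the MYB family was picked out because edgeR's test of the difference between the times, in the fit of all 12 libraries, called it. The change at 96 h less that at 24 h, on the log2 scale, was 0.92 for MYBL1, with every GSK591 library above every vehicle library at both times. It was -0.75 for MYB, whose GSK591 and vehicle libraries stood apart at 96 h and overlapped at 24 h. It was -0.38 for MYBL2, which fell short of the threshold without vehicle replicate 1 of 24 h (-0.36) and without GSK591 replicate 2 of 24 h (-0.37). The members were chosen with these contrasts known, so a call by this test is no support for them, and the 3 values are descriptions. With 3 samples in a group, single samples were not tested as outliers. In replicate pairs of 96 h, the chi-square of gene counts per degree of freedom was 24.6 and 16.6 for pairs with vehicle replicate 2, against 2.97 for the remaining vehicle pair. It was 39.8 and 31.6 for pairs with GSK591 replicate 2, against 9.12 for the remaining GSK591 pair.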

How the results depend on the processing

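The members' values are descriptions, and where they cross the threshold nothing is read from it. At 96 h their log2 fold changes kept their direction and their side of the threshold under all 15 alternatives, from -0.90 to -0.65 for MYB, 1.12 to 1.27 for MYBL1 and -0.54 to -0.35 for MYBL2. At 24 h all 12 samples in 1 fit called 29 genes in place of 1940 and ended every list call of 24 h. In that fit MYBL1 (0.27) and MYBL2 (-0.09) kept their values and fell short of the threshold. Leaving out 1 library gave 980 to 2208 genes called at 24 h, with 1068 without vehicle replicate 2, 980 without GSK591 replicate 1 and 1041 without GSK591 replicate 3. The same 3 omissions left MYBL2 short of the threshold (range -0.11 to -0.07), MYB ran from -0.08 to 0.04 (0.04 and 0.01 without the first 2) and MYBL1 from 0.24 to 0.29. Leaving out both 96 h libraries numbered 2 gave 8201 genes called at 96 h and 6022 for the difference between times. Leaving out 1 library gave 3438 to 7485 genes called at 96 h, with 3507 without vehicle replicate 2 and 3438 without GSK591 replicate 1. For the difference it gave 1991 to 5712 genes, with 2034 without vehicle replicate 3 and 1991 without GSK591 replicate 2 of 24 h, 5712 without GSK591 replicate 2 of 96 h, and a MYBL2 value between -0.46 and -0.28. The log2 difference of the MYBL1 to MYBL2 ratio stayed between 1.58 and 1.70 at 96 h and between 0.31 and 0.39 at 24 h. Among genes named beside the family, EXOSC2 at 24 h ran from -0.03 to 0.01 with 1 library left out, at 0.01 without vehicle replicate 2.

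With the replicate number as a block, 2811 genes were called at 24 h, 6293 at 96 h and 4323 for the difference, and no family member changed its side of the threshold. The numbers share no stated source: same-numbered samples correlated at 0.0215, 0.131 and 0.0355 at 24 h and at 0.287, 0.248 and 0.0128 at 96 h, and not every sample correlated best with its own number. The cause of these changes was not tested. Depth limits MYB most, at 237 to 555 reads outside the deepest library.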
